A study of Mus musculus with 16 samples.

Results

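The sarcoglycans and their dystrophin-complex partners were followed through an array study of D1 medium spiny neurons, the striatal projection neurons that carry the D1 dopamine receptor. The members were 9 genes, namely Sgcb, Sgca, Sgcd, Sgce, Sgcz, Dag1, Dmd, Dtna and Dtnb, and every probe set annotated to one of them alone was taken. This gave 22 of the 37112 probe sets tested, covering 7 of the 9 genes: 3 for Sgcb, 1 for Sgcd, 1 for Sgce, 4 for Dag1, 4 for Dmd, 7 for Dtna and 2 for Dtnb. Sgca and Sgcz had no probe set in the annotation used and were not analysed here. The family was selected on the deletion minus control difference of Sgcb in earlier results of these data, so that difference is given as a description and the other members beside it.

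The deletion group held 9 arrays of mice with both copies of miR-128-2 deleted in D1 neurons, 4 in experimental repeat 1 and 5 in repeat 2. The control group held 7 arrays of littermates, 4 in repeat 1 and 3 in repeat 2. All were C57BL6/J mice aged 3 months, and both groups carried the ribosome tag in D1 neurons with which polysome-associated RNA was pulled down from dissected striatum. The driver line of the deletion and of the tag, and the number of animals behind an array, are not stated in the labels. The labels call the arrays biological replicates within a repeat.

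The dystrophin-associated complex links the cytoskeleton of a cell to the extracellular matrix across the membrane. In muscle, dystroglycan binds laminin outside and dystrophin inside, and the sarcoglycans form a transmembrane subcomplex beside it that steadies this link; loss of a sarcoglycan causes limb-girdle muscular dystrophy in humans. In brain, forms of the complex occur at inhibitory synapses of neurons and at glial endfeet around blood vessels, and mutations of the human SGCE gene cause a movement disorder, myoclonus-dystonia.

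MicroRNAs of the miR-128 family are made from a pair of hairpins, of which the deletion removes miR-128-2. The sequences below are from RefSeq (GRCm38.p6) and are shown because they define what was removed and what the genome still encodes. The Mir128-2 hairpin lies at chr9:112118636-112118711 on the minus strand and the Mir128-1 hairpin at chr1:128202361-128202430 on the plus strand. Capitals in the hairpins mark the mature 3p microRNA, and capitals in the mature sequences mark the seed, bases 2 to 8.
Mir128-2 hairpin: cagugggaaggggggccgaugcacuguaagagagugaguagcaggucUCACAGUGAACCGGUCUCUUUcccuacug
Mir128-1 hairpin: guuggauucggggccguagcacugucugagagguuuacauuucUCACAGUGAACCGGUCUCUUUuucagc
mmu-miR-128-3p: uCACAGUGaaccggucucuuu
mmu-miR-128-2-5p: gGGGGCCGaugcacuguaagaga
mmu-miR-128-1-5p: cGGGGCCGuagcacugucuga
The 21-base 3p microRNA was the same from both loci, so the Mir128-1 locus still encodes it in deletion mice. The annotation used names no probe set for either microRNA gene, and the deletion was therefore not checked on the arrays.

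Values are the authors' log2 expression relative to the probe set's own median, taken across all 16 arrays. They show differences between arrays and no level, so no probe set could be ranked by abundance or called absent, and the D1 identity of the RNA could not be checked by level. Differences between genotypes were fitted in limma beside a term for the experimental repeat, and a probe set was called where the p adjusted by Benjamini and Hochberg's method over all probe sets was under 0.05. By this rule 11 of 37112 probe sets were higher in deletion arrays (0.0296%) and 1 was lower (0.00269%). A pair of control arrays, repeat 1 replicate 3 and repeat 2 replicate 1, stood apart in markers of oligodendrocytes, the myelin-forming glia. The mean of 12 of 13 listed markers lay between -0.36 and 0.42 in deletion arrays and between -0.28 and 1.499 in control arrays, at 1.499 and 1.38 in those 2 arrays. Markers of other glia were also higher in them, microglia at 0.62 and 0.70 against at most 0.21 in the other 14 arrays, oligodendrocyte precursors at 0.57 and 0.63 against at most 0.15, and astrocytes at 0.48 and 0.36 against at most 0.28. The 2 arrays also stood apart in neuron markers. Markers of D2 neurons, the striatal projection neurons with the D2 dopamine receptor, were at 0.56 and 0.54 against at most 0.37 in the other 14. Those of D1 neurons were at -0.19 and -0.28 against at least -0.16. Values without these 2 arrays are given beside the larger differences that they moved. The difference between 3′ and 5′ control probe sets of Gapdh and beta-actin, a sign of RNA length, lay between -0.36 and 1.17 in deletion arrays and between -0.66 and 1.82 in control arrays, highest in control repeat 2 replicate 1 and next in deletion repeat 2 replicate 2.

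Sgcb encodes beta-sarcoglycan, a core subunit that the other sarcoglycans need to reach the muscle membrane. Of its 3 probe sets, 2 were higher in deletion arrays and these were the only 2 of the 22 members past the threshold, beside 0.0296% of all probe sets; nothing is read from that count, since this contrast chose the family. The probe sets 1419667_at and 1419668_at are annotated to the same transcript record and 1436678_at to another.

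For 1436678_at, deletion arrays had -0.02, 0.08, 0.02 and 0.19 in repeat 1 and 0.34, 0.65, 0.42, 0.12 and 0.67 in repeat 2. Control arrays had -0.42, -0.52, -0.91 and -0.73 in repeat 1 and -1.19, -0.67 and -0.59 in repeat 2. Every deletion array was above every control array, an order that 7 of 37112 probe sets showed (0.0189%; the reverse order was seen in 0.0108%), and this was the only member whose groups did not overlap. The mean was 0.27 ± 0.26 in deletion arrays (SD, n = 9) and -0.72 ± 0.26 in control arrays (SD, n = 7). The fitted difference was 0.97 ± 0.13 (SE), or 1.96-fold with a 95% interval of 1.63 to 2.37 (limma adjusted p = 0.031). It was 0.71 ± 0.11 in repeat 1 and 1.26 ± 0.18 in repeat 2 (SE). The lowest control value of each repeat came from the array with high oligodendrocyte markers. Without both arrays the difference was 0.83 ± 0.11 (SE) and no longer past the threshold (limma adjusted p = 0.19). No probe set was called higher in that fit. The control array at -1.19 also had the highest 3′ to 5′ difference, while deletion repeat 2 replicate 2, with the next highest, had 0.65. The part of RNA length in the result was not tested.

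For 1419668_at, deletion arrays had 0.47, 0.54, 0.78 and 0.02 in repeat 1 and 0.24, -0.17, 0.48, 0.31 and 0.28 in repeat 2. Control arrays had -0.33, -0.02, -0.47 and -0.08 in repeat 1 and -0.61, -0.90 and -0.73 in repeat 2. All 9 deletion arrays were above the control mean of their own repeat, as in 1.82% of all probe sets (all below in 2.34%), but the lowest repeat 2 deletion array lay below the highest repeat 1 control arrays. The mean was 0.33 ± 0.29 in deletion arrays (SD, n = 9) and -0.45 ± 0.33 in control arrays (SD, n = 7), a fitted difference of 0.82 ± 0.12 (SE), or 1.76-fold with a 95% interval of 1.47 to 2.11 (limma adjusted p = 0.039). Without the 2 control arrays the difference was 0.80 ± 0.14 (SE; limma adjusted p = 0.25).

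For 1419667_at, deletion arrays had 0.29, 0.53, 0.68 and -0.31 in repeat 1 and -0.20, -0.98, -0.03, -0.14 and 0.23 in repeat 2. Control arrays had 0.18, 0.29, 0.03 and 0.18 in repeat 1 and -0.55, -0.07 and -0.48 in repeat 2. The lowest values, -0.98 and -0.55, came from the 2 arrays with the highest 3′ to 5′ difference, whose part in the result was not tested. The groups overlapped in both repeats, and the difference of 0.14 ± 0.17 (SE) did not pass the threshold (limma adjusted p = 1.0), with a 95% interval of -0.23 to 0.50; it was 0.07 ± 0.20 (SE) without the 2 control arrays. That interval lies below both other Sgcb estimates, although 1419668_at is annotated to the same transcript record. The probe sets of Sgcb therefore did not give one value for the gene. Averaged over the 3, Sgcb differed by 0.64 ± 0.10 (SE), or 1.56-fold with a 95% interval of 1.35 to 1.81 (limma adjusted p = 0.029 over 16206 genes, of which 0.0617% were called higher). Without the 2 control arrays this was 0.56 ± 0.10 (SE; adjusted p = 0.21).

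**Figure D1:**
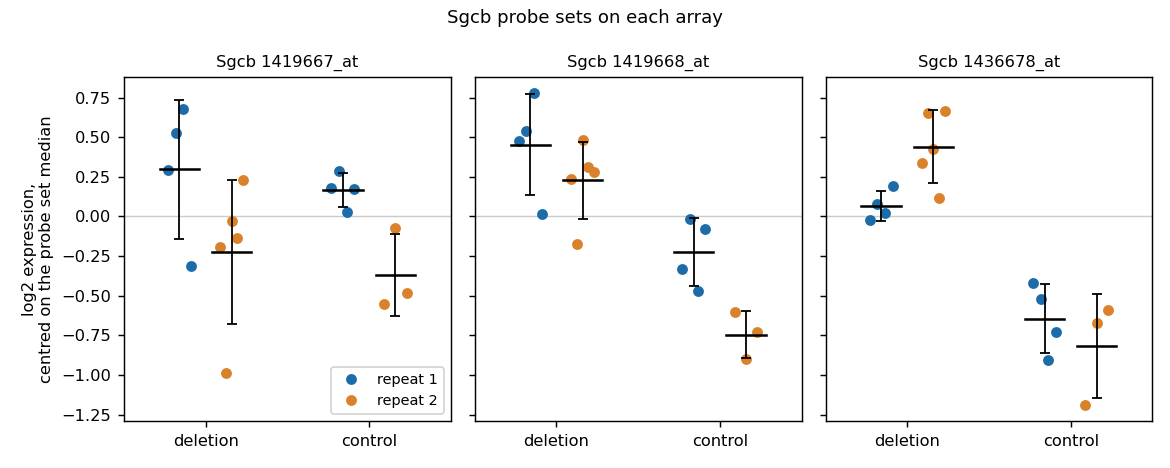
Each point is 1 array, with the log2 expression centred on the probe set median on the vertical axis, the 3 Sgcb probe sets in panels, and deletion left of control; bars give the mean ± SD within each repeat (blue for repeat 1, orange for repeat 2). Deletion arrays of 1436678_at reach from -0.02 to 0.67 and control arrays from -1.19 to -0.42, while the groups of 1419667_at overlap.

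The calls of Sgcb held in only some subsets of the arrays. With each of the 16 arrays left out in turn, the difference of 1436678_at lay between 0.86 and 1.03 and passed the threshold in 8 of 16 fits. That of 1419668_at lay between 0.77 and 0.90 and passed in 3 of 16 fits, those without deletion repeat 1 replicate 4, deletion repeat 2 replicate 2 or control repeat 1 replicate 2. The difference of 1436678_at lost its call without any 1 of deletion repeat 1 replicates 2 and 3, deletion repeat 2 replicates 1 and 3, control repeat 1 replicates 3 and 4, or control repeat 2 replicates 1 and 2. The mean over the 3 probe sets lay between 0.60 and 0.70 and passed in 6 of 16 fits. That of 1419667_at lay between 0.08 and 0.23 and passed in none of the 16. The size of the 2 called differences thus stayed within these ranges while their calls depended on single arrays. A call also depends on the p-values of all other probe sets, over which p is adjusted. Without the 2 control arrays the unadjusted limma p was 5.6e-06 for 1436678_at, beside 2.1e-06 with all arrays. For 1419668_at it was 1.1e-04, beside 9.2e-06. Since this contrast chose the family, these p-values are descriptions. Whether the genotype difference itself varied between repeats was tested as an interaction, which 0 of 22 members passed, beside 0% of all probe sets. Before adjustment 1 of the 22 was under 0.05, beside 1.85% of all probe sets on the higher and 1.99% on the lower side. This was Sgcb 1436678_at, whose difference was larger in repeat 2 by 0.54 ± 0.22 (SE; limma interaction adjusted p = 0.89).

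The other subunits of the sarcoglycan complex on the arrays were Sgcd and Sgce. Sgcd encodes delta-sarcoglycan, which pairs with beta-sarcoglycan during assembly. Its probe set 1450805_at ranged from -0.02 to 0.05 with a median of 0.005 in deletion arrays, and from -0.02 to 0.06 with a median of -0.00 in control arrays. These values hardly varied, and the difference was -0.004 ± 0.014 (SE; limma adjusted p = 1.0).

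Sgce encodes epsilon-sarcoglycan, which takes the place of alpha-sarcoglycan in many tissues outside striated muscle, brain included. Its probe set 1420688_a_at had 0.43, 0.71, 0.55 and 0.17 in repeat 1 and -0.08, -1.23, -0.03, 0.03 and -0.63 in repeat 2 deletion arrays. Control arrays had 0.35, 0.28, -0.16 and 0.47 in repeat 1 and -1.29, -0.47 and -0.03 in repeat 2. The genotypes overlapped in both repeats and differed by 0.22 ± 0.21 (SE; limma adjusted p = 0.99). The lowest control value of each repeat was again that of the array with high oligodendrocyte markers, and without both the difference was -0.01 ± 0.20 (SE). The lowest values of all, -1.29 and -1.23, were those of the 2 arrays with the highest 3′ to 5′ difference; its part in the result was not tested.

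Dag1 encodes dystroglycan, whose alpha chain binds laminin, agrin and neurexins outside the cell and whose beta chain spans the membrane and binds dystrophin. Its 4 probe sets differed between genotypes by -0.02 to 0.13. For 1423872_a_at, deletion arrays had 0.37, -0.15, 0.31 and 0.09 in repeat 1 and -0.40, -0.00, -0.64, 0.01 and -0.37 in repeat 2, and control arrays had 0.23, 0.00, 0.39 and 0.26 in repeat 1 and -0.42, -0.85 and -0.57 in repeat 2. Its difference of 0.13 ± 0.12 (SE) was the largest of the gene and did not pass the threshold (limma adjusted p = 0.99). The mean over the 4 probe sets differed by 0.06 ± 0.07 (SE), with a 95% interval of -0.09 to 0.20.

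Dmd encodes dystrophin, the large cytoskeletal protein that binds actin and beta-dystroglycan and that is also made in shorter forms from internal promoters. No source used here says which form a probe set measures. Its 1417307_at had the largest positive difference among the partners, 0.33 ± 0.27 (SE; limma adjusted p = 0.97), and the values were uneven. Deletion arrays had -0.06, -0.00, 1.45 and -0.30 in repeat 1 and 0.08, 0.04, 0.21, 0.23 and -0.72 in repeat 2, and control arrays had -0.01, -0.04, -0.00 and 0.00 in repeat 1 and -1.42, 0.12 and 0.06 in repeat 2. The deletion array at 1.45 and the control array at -1.42 stood away from all others. The difference was 0.10 ± 0.26 (SE) without the 2 control arrays of high oligodendrocyte markers, 1 of which had the value of -1.42. That array also had the highest 3′ to 5′ difference, while deletion repeat 2 replicate 2, with the next highest, had 0.04. The part of RNA length in the result was not tested. The probe set 1448665_at had the opposite sign, -0.19 ± 0.15 (SE; limma adjusted p = 0.94), or -0.11 without the 2 control arrays, and 1430320_at and 1443315_at differed by -0.02 ± 0.03 and -0.001 ± 0.019 (SE).

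Dtna and Dtnb encode the dystrobrevins, dystrophin relatives that bind dystrophin and syntrophins inside the membrane, alpha-dystrobrevin largely in glia and beta-dystrobrevin in neurons. The 7 Dtna probe sets differed by -0.26 to 0.27, and none passed the threshold. The lowest was 1427588_a_at at -0.26 ± 0.16 (SE; limma adjusted p = 0.85), with deletion values of 0.00, -0.01, -0.00 and 0.68 in repeat 1 and 0.02, -0.25, -0.20, -0.28 and -0.42 in repeat 2, and control values of 0.05, -0.02, 0.72 and 0.16 in repeat 1 and 0.76, 0.01 and -0.01 in repeat 2. The highest was 1426066_a_at at 0.27 ± 0.21 (SE; limma adjusted p = 0.95). Without the 2 control arrays these were -0.05 ± 0.12 and 0.09 ± 0.21, and 1456069_at differed by 0.18 ± 0.19 against -0.17 ± 0.25 with all arrays (SE). In 1456069_at those control arrays had 0.65 and 1.26, the highest values of their repeats, so the Dtna estimates of either sign moved with the same arrays as the oligodendrocyte markers; their part in the result was not tested. For Dtnb, 1437651_a_at differed by 0.19 ± 0.13 and 1445329_at by -0.03 ± 0.03 (SE).

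Of the 19 probe sets of the partners, 0 passed the threshold by limma and 0 had an unadjusted p under 0.05, beside 3.71% of all probe sets on the higher and 3.13% on the lower side. Their smallest unadjusted p was 0.12, that of Dtna 1427588_a_at. Of the 19, 7 were higher and 12 lower, with a median difference of -0.004, beside -0.003 over all 37112 probe sets. The 95% intervals differed in width. They ran from -0.03 to 0.03 for Sgcd and from -0.08 to 0.18 for Dag1 1426778_at. The upper end reached 0.67 for Sgce and 0.91 for Dmd 1417307_at. Sgcd was 1 of 5 members that hardly varied, with a residual SD (the spread left after genotype and repeat) under 0.075. Whether such probe sets had signal cannot be seen on centred values, so their narrow intervals do not exclude a change in the transcript. A difference as large as the 0.82 of Sgcb 1419668_at lay inside the interval of Dmd 1417307_at and of no other partner. Since the family was chosen on the Sgcb difference, nothing about the partners is read from this. Over every alternative analysis tried, 0 of 489 values of these 19 probe sets passed the threshold, and 13 of the 19 changed sign at least once. The sign was shared by both repeats in 13 of the 22 members. The matching share over all probe sets was not computed, so nothing is read from this count.

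**Figure D2:**
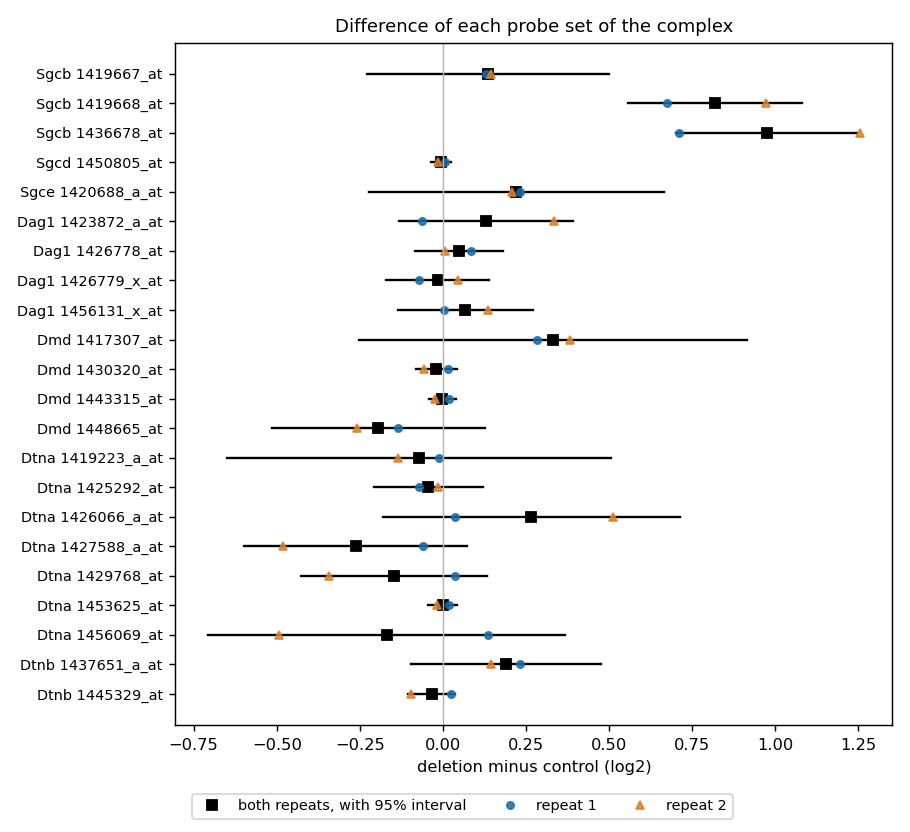
The horizontal axis gives the deletion minus control difference (log2) of each of the 22 probe sets: squares are the fit over both repeats with its 95% interval, circles repeat 1 and triangles repeat 2. Sgcb 1419668_at and 1436678_at sit at 0.82 and 0.97, and the 19 partners lie between -0.26 and 0.33 with intervals that include 0.

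The experimental repeat, which played no part in the choice of the family, separated more members than the genotype did, and likewise more of all probe sets. At an adjusted p under 0.05, 4 of 22 were lower in repeat 2 than in repeat 1 and 1 was higher, beside 5.53% and 6.35% of all probe sets. Before adjustment 8 of the 22 were under 0.05, beside 10.3% of all probe sets on the lower and 15.4% on the higher side. Sgce was lower by the most, with a mean of -0.47 in the repeat 2 arrays and 0.35 in the repeat 1 arrays, a difference of -0.84 ± 0.21 (SE; limma adjusted p = 0.015). In that gene all 8 arrays of repeat 2 were below the mean of repeat 1. What differed between the repeats is not given in the labels.

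Dystroglycan moved in the same direction as Sgce. Its 1423872_a_at averaged -0.40 in repeat 2 and 0.19 in repeat 1 (-0.61 ± 0.12 SE; limma adjusted p = 0.0050). Its 1426778_at averaged -0.13 and 0.10 in the same order (-0.24 ± 0.06 SE; adjusted p = 0.020), with deletion values of -0.12, -0.20, -0.00, 0.00 and -0.32 in repeat 2 and 0.16, 0.07, 0.18 and 0.17 in repeat 1, and control values of -0.16, -0.30 and 0.06 in repeat 2 and 0.13, -0.06, -0.03 and 0.19 in repeat 1. Its 1456131_x_at averaged -0.18 and 0.12 (-0.31 ± 0.09 SE; adjusted p = 0.045), with deletion values of -0.07, 0.07, -0.33, 0.10 and -0.41 in repeat 2 and 0.23, -0.08, 0.27 and 0.09 in repeat 1, and control values of -0.19, -0.34 and -0.27 in repeat 2 and 0.29, -0.19, 0.32 and 0.07 in repeat 1. The fourth, 1426779_x_at, differed by -0.18 ± 0.07 (SE; adjusted p = 0.13), so that 3 of the 4 dystroglycan probe sets were lower in repeat 2 and the fourth had the same sign without passing.

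Dmd 1448665_at was the member that was higher in repeat 2, averaging 0.12 there and -0.37 in repeat 1 (0.52 ± 0.15 SE; limma adjusted p = 0.034). Deletion arrays had 0.12, 0.06, -0.08, -0.03 and 0.07 in repeat 2 and -0.40, -0.46, 0.01 and -0.91 in repeat 1, and control arrays had 0.42, 0.40 and 0.03 in repeat 2 and -0.50, -0.87, -0.01 and 0.16 in repeat 1. The repeat calls of Sgce, Dag1 1423872_a_at and Dag1 1426778_at held with each of the 16 arrays left out, those of Dag1 1456131_x_at and Dmd 1448665_at in 4 and 7 of the 16 fits. The 2 Sgcb probe sets annotated to 1 transcript record were also below 0 in this contrast without passing, at -0.53 ± 0.17 and -0.35 ± 0.12 (SE; adjusted p = 0.059 and 0.077), while 1436678_at differed by 0.14 ± 0.13 (SE).

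**Figure D3:**
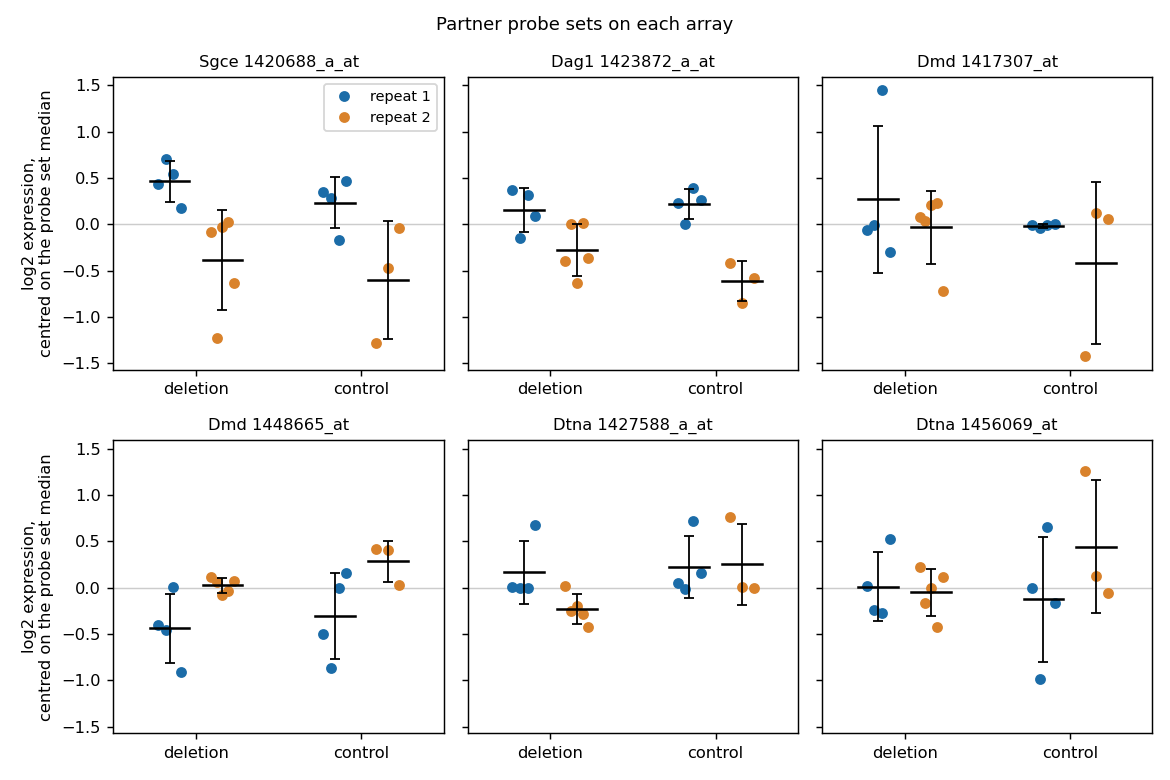
Each point is 1 array, with log2 expression centred on the probe set median on the vertical axis, for 6 partner probe sets, deletion left of control; bars give the mean ± SD within each repeat. Sgce and Dag1 1423872_a_at are lower in repeat 2 (orange) in both genotypes, and single arrays such as the 1.45 and -1.42 of Dmd 1417307_at stand away from their groups.

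The members were then compared with each other array by array, after the fitted genotype and repeat effects were taken out, over 16 arrays that share their amplification and normalization. These correlations are descriptions. Over 194 pairs of different genes the median Pearson r was -0.04, and over 37 pairs of probe sets of 1 gene it was 0.12. Probe sets of 1 gene thus often did not follow each other.

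Sgcb 1419667_at and 1419668_at had r = 0.70 (Spearman rho = 0.58), which fell to 0.31 without the 2 arrays farthest from the median and so rests on them. The remaining Sgcb probe set had r = -0.03 and -0.04 with these. Dtna split into sets: 1429768_at, 1456069_at and 1427588_a_at had r of 0.77 to 0.94 with each other, 1419223_a_at and 1426066_a_at had r = 0.77 (rho = 0.75), and between the sets r lay between -0.22 and -0.50. A further probe set, 1425292_at, had r = 0.65 with 1419223_a_at, and 0.17 without the 2 farthest arrays. The first set was higher in the 2 control arrays with high oligodendrocyte markers, at 0.32 and 0.64 for 1429768_at and 0.72 and 0.76 for 1427588_a_at, and the second lower, at -0.91 and -0.23 for 1426066_a_at. In those 2 arrays every value of the first set was above 0 and every value of the second below 0. The probe positions that could tie a set to an isoform are not used here.

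Dag1 1423872_a_at and 1456131_x_at had r = 0.81 (rho = 0.81), and 0.79 without the 2 farthest arrays. Between different genes, Sgce and Dtna 1419223_a_at had r = 0.78 (rho = 0.72), and 0.76 without the 2 farthest arrays. The highest correlations between genes were among probe sets that hardly varied. Sgcd 1450805_at, Dmd 1430320_at, Dmd 1443315_at and Dtna 1453625_at had r of 0.86 to 0.95 with each other, and all had a residual SD under 0.075, as did Dtnb 1445329_at. Such low variation was shared by 13157 of the 37112 probe sets (35.5%), and these 4 members had r of 0.90 to 0.97 with the mean of 13152 others of low variation, so this pattern was shared with much of the array.

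**Figure D4:**
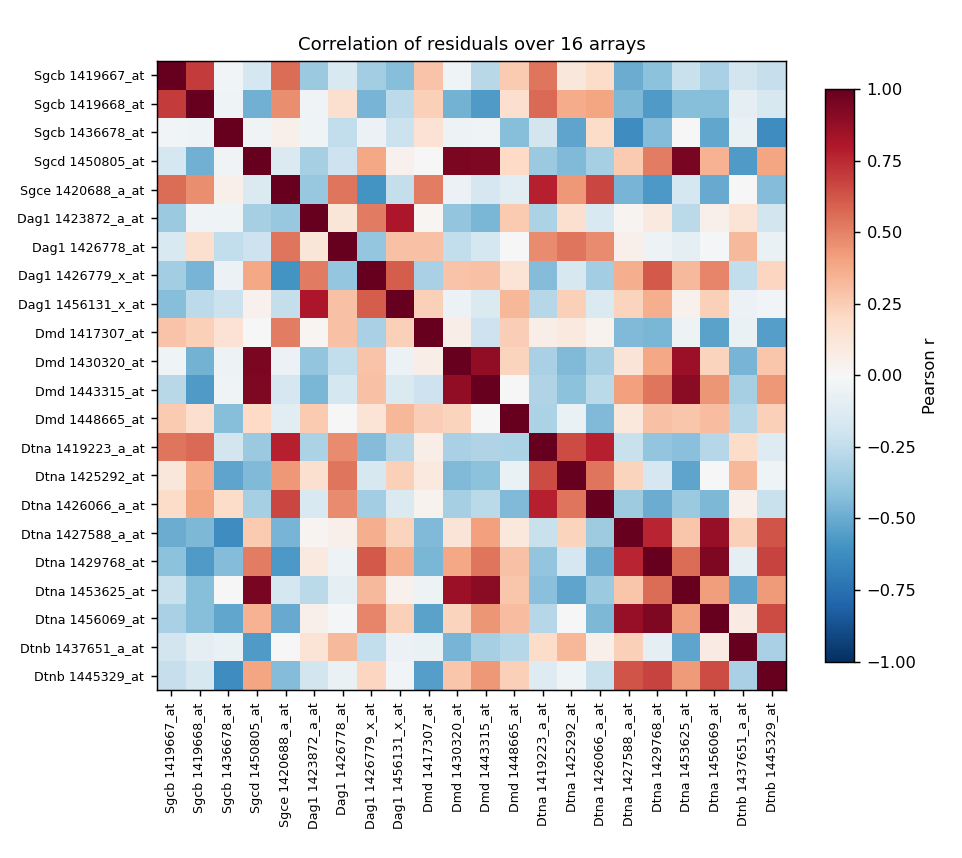
The colour of each square gives Pearson r between the residuals of 2 probe sets over 16 arrays after genotype and repeat, on a scale of -1 to 1. The blocks with the highest r are the Dtna set around 1456069_at, the Dag1 pair at 0.81, and the low-variation probe sets of Sgcd, Dmd and Dtna at 0.86 to 0.95.

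The probe sets with 1 gene most like 2 of the 3 Sgcb probe sets were ranked by the r of their residuals with the mean residual of 1419667_at and 1419668_at. They were those of Anxa7 at 0.89, Cpne2 at 0.89, Eif3e at 0.88, Gsto1 at 0.88 and Fuca2 at 0.88, over 16 arrays. Anxa7 and Cpne2 encode calcium-dependent membrane-binding proteins, Eif3e a translation initiation factor, Gsto1 a glutathione transferase and Fuca2 a fucosidase. Their deletion minus control differences lay between -0.20 and 0.15, beside 0.14 and 0.82 for those Sgcb probe sets. The r of 0.70 between those 2 Sgcb probe sets rests on 2 arrays, and 1436678_at had r = -0.03 and -0.04 with them. The ranking therefore describes this pair and not Sgcb as a whole. How far these r values rest on single arrays was not tested.

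Genes that act around the complex were examined as lists, with 1 mean over the probe sets of each gene. Of 57 genes measured of 70 listed, 0 were called by limma over 16206 genes, of which 0.0617% were called higher and 0% lower. Without adjustment, 3 genes passed 0.05 on the higher side and 6 on the lower, beside 4.97% and 3.71% of all genes. The median difference over all genes was -0.003.

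Other core members were 8 of 11 listed, among them the syntrophins, adaptors bound to dystrophin, and neuronal nitric oxide synthase, which docks on them. Their median difference was 0.006, with 4 above and 4 below 0 and none at an unadjusted p under 0.05. The smallest p belonged to Nos1 (-0.11 ± 0.05), Sntg2 (0.24 ± 0.13) and Sntb2 (-0.10 ± 0.06; SE). Without the 2 control arrays Nos1 differed by -0.03 and Sntg2 by 0.10. Extracellular ligands of dystroglycan were 14 of 15 and had a median of 0.009. Agrn, the matrix proteoglycan agrin, ranged from -0.23 to 0.53 in deletion arrays and from -0.37 to 0.19 in control arrays, a difference of 0.32 ± 0.09 (SE; limma adjusted p = 0.33), and Slit2, an axon guidance ligand, from -0.20 to 0.23 in deletion arrays and from -0.03 to 0.30 in control arrays (-0.21 ± 0.07 SE; adjusted p = 0.39). Nrxn3, a presynaptic neurexin, differed by 0.08 ± 0.04 (SE). Groups overlapped in both Agrn and Slit2.

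The enzymes that build the laminin-binding sugar of dystroglycan were 14 of 19, of which 11 had a difference above 0 and 3 below, with a median of 0.11. This list's mean was lowest in control repeat 2 replicate 1, at -0.34, and without the 2 control arrays the median was 0.05. Pomk, the kinase of this pathway, ranged from -0.27 to 0.39 in deletion arrays and from -0.67 to 0.18 in control arrays, a difference of 0.29 ± 0.07 (SE; limma adjusted p = 0.21). Without the 2 control arrays Pomk differed by 0.20. The transferases Pomgnt2 and Pomt2 differed by 0.20 ± 0.10 and 0.10 ± 0.05 (SE), Pomgnt2 by 0.12 without the 2 control arrays.

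Intracellular and membrane partners were 16 of 18, with a median of -0.06, 5 above and 11 below 0; the median was 0.002 without the 2 control arrays. Syne1, a giant spectrin-repeat protein of the nuclear envelope, ranged from -0.34 to 0.23 in deletion arrays and from -0.05 to 0.63 in control arrays (-0.39 ± 0.10 SE; limma adjusted p = 0.23). Gphn, the gephyrin scaffold of inhibitory synapses, differed by -0.16 ± 0.06 (SE; adjusted p = 0.45), and by -0.08 without the 2 control arrays. Insyn2a, an inhibitory synapse protein, had a difference of 0.85 ± 0.34 (SE; adjusted p = 0.49) that was 0.21 in repeat 1 and 1.53 in repeat 2, with 1 control array at -2.20, and 0.56 overall without the 2 control arrays. Muscle disease genes outside the complex were 5 of 7, with a median of -0.13, 1 above and 4 below 0. They were led by the nuclear lamina gene Lmna (-0.17 ± 0.05), the ubiquitin ligase Trim32 (-0.13 ± 0.06) and the nuclear membrane gene Emd (-0.37 ± 0.19; SE). Lmna differed by -0.11 without the 2 control arrays, and Emd by 0.01 in repeat 1 and -0.77 in repeat 2.

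**Figure D5:**
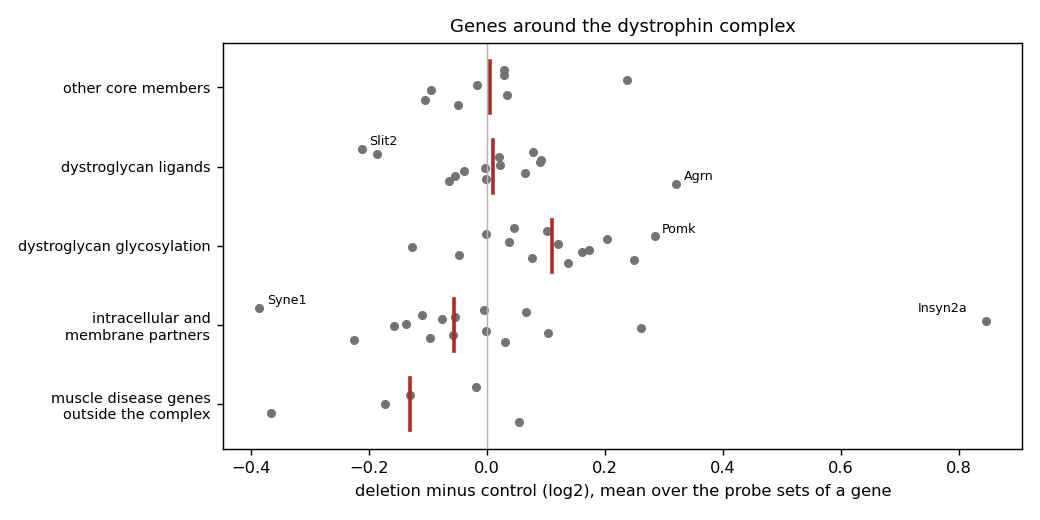
Each point is 1 gene, with the deletion minus control difference (log2, mean over its probe sets) on the horizontal axis, in rows by list; red bars are list medians. Medians run from -0.13 for muscle disease genes to 0.11 for dystroglycan glycosylation, and no gene shown was called.

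Markers of some of the cells that the pulldown could hold are given beside these results. D1 neuron markers, 7 of 8 listed, had means between -0.02 and 0.22 in deletion arrays and between -0.28 and 0.06 in control arrays, a difference of 0.22 ± 0.05 (SE), or 0.17 without the 2 control arrays. The members were uneven, with 6 above and 1 below 0, from Pdyn at 0.63 and Slc35d3 at 0.37 to Tac1 at 0.02 and Isl1 at -0.005. Their median was 0.20, and 0.10 without the 2 control arrays. Endothelial markers, 5 of 10, lay between -0.15 and 0.05 in deletion arrays and between -0.01 and 0.13 in control arrays (-0.11 ± 0.03 SE, and -0.08 without the 2). That mean came from Esam (-0.32) and Slc2a1 (-0.20), while Flt1 was at 0.002 and Emcn and Tek at -0.002. Sarcoglycans are also made in muscle: smooth muscle and mural cell markers, 7 of 10, had a mean difference of 0.01 ± 0.04 (SE) over members of opposite sign, with Tagln at 0.46, Rgs5 at -0.21 and Pdgfrb at -0.15. Skeletal muscle markers, 5 of 6, differed by 0.03 ± 0.06 (SE), and by -0.04 without the 2 control arrays. Oligodendrocyte markers differed by -0.37 ± 0.28 (SE), and by 0.06 without the 2 control arrays. D2 neuron markers, 3 of 6, differed by -0.08 ± 0.13 (SE), and by 0.12 without the 2 control arrays. Cortical glutamatergic neuron markers, 4 of 5, differed by -0.30 ± 0.21 (SE), and striatal interneuron markers, 5 of 7, by -0.25 ± 0.20 (SE). Without the 2 control arrays these were -0.22 and -0.15. The part of these shifts in the Sgcb difference was not tested, and in such bulk RNA fewer cells of a type and less RNA per cell cannot be told apart.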

How the data were processed

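The authors deposited log2 expression of 16 arrays, named in the submitters' processing notes with GCOS 1.4 and GCRMA, and centred on each probe set's median. The authors also deposited a p-value per probe set, which per the file headers is the genotype term of a 2-factor model; an ordinary linear model with genotype, repeat and interaction matched it to within 2.0e-05, and it is not used further. Groups, repeats and replicate numbers come from the array titles.

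Leaving out 62 control probe sets of the manufacturer left 37112. The platform annotation gave 1 gene for 29680, several for 819 and none for 6613. Of the probe sets with 1 gene, 29539 were matched to RefSeq. Differences were fitted in R 4.3.3 by limma 3.58.1 (functions lmFit and eBayes; genotype and repeat as terms, two-sided, 13 residual degrees of freedom before moderation), with Benjamini-Hochberg adjustment over all probe sets or over 16206 genes (means over probe sets). Precision is limited by how many arrays there are. No filter on low values was possible on centred values. The labels do not say how many animals gave each array, so p-values measure only the spread between arrays. On simulated data with the real spread, 50.7% of 67 probe sets changed by 0.3, 65.7% of 67 changed by 0.6 and 89.4% of 66 changed by 1 were called among 37112. Of 36912 unchanged probe sets, 7 were called. The noise was drawn for each probe set on its own, unlike the shared variation of the real arrays. Changed probe sets were drawn from all, of which 35.5% had a residual SD under 0.075. These shares are therefore not those for members of larger spread. Whether same-numbered deletion and control arrays of a repeat are pairs is not stated in the labels, and the main fit took them as unpaired. The alternatives tried left out each array, a pair of control arrays or the repeat term, or changed the model, scaling, variance estimate, weights, filter on residual SD or gene summary.

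The members and the gene lists were chosen with earlier results of these data known. All Sgcb probe sets and members called in any fit were given array by array, and of each list the called genes, or otherwise the 3 with the smallest p, were named. No genome, protein or 3′ untranslated sequence was used here.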

Additional observations from a re-analysis of the deposited data

Results flagged for a closer look

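Each member was checked for a single array far from its group, by Dixon's criterion at 95%, in 44 groups of a probe set and genotype. Chance marks about 1 in 20 groups, and 6 of 44 were marked. Dmd 1417307_at had 2 such arrays, deletion repeat 1 replicate 3 at 1.45 with the nearest deletion array at 0.23, and control repeat 2 replicate 1 at -1.42 with the nearest control array at -0.04. Dmd 1430320_at was high in control repeat 2 replicate 2, at 0.19 with the nearest at 0.02. Dtna 1419223_a_at was low in deletion repeat 2 replicate 2, at -1.55 with the nearest at -0.26, and Dtna 1427588_a_at was high in deletion repeat 1 replicate 4, at 0.68 with the nearest at 0.02. Dtnb 1445329_at was high in control repeat 2 replicate 1, at 0.24 with the nearest at 0.06. No Sgcb, Sgcd, Sgce or Dag1 probe set was marked. Of the 6 values, 2 came from control repeat 2 replicate 1, 1 of the pair with high oligodendrocyte markers. That array also had the highest 3′ to 5′ difference, and the -1.55 of Dtna 1419223_a_at came from the array with the next highest. The part of either was not tested.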

How the results depend on the processing

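None of the 720 deletion minus control differences of members under the alternatives moved by more than the spread between arrays (1 SD) or changed sign past the threshold. This is a wide limit, within which Dtna 1456069_at went from -0.17 to 0.18. The repeat differences are not among the 720. The counts over all probe sets did move. With 1 array left out at a time, probe sets called between genotypes ranged from 0 to 16 higher and 0 to 2 lower, genes from 2 to 10 higher and 0 to 1 lower, and interaction calls from 0 to 8 higher and 0 to 9 lower. Without both control arrays of high oligodendrocyte markers, 0 probe sets were higher and 0 lower, 1 gene was higher, and 3 interaction calls were higher and 6 lower. Without the repeat term, 1 probe set was higher and 0 lower, with 4 genes higher; adding the interaction left 0 lower. Re-centring each array left 6 higher, quantile normalization gave 2 lower and 1 lower interaction call, ordinary variance gave 0 and 0, and array quality weights gave 22 higher and 5 lower. A minimum residual SD of 0.075 moved the median of the dystroglycan ligands to 0.065, and the median over a gene's probe sets moved that of the muscle disease genes to -0.028. The causes were not tested. Fitted with a replicate block, 0 probe sets were higher and 0 lower, and 1 gene was higher. Same-numbered pairs had r of -0.27 to 0.39, and 3 of 7 deletion arrays correlated best with their own number. With so few control arrays to choose from in a repeat, this neither shows nor excludes a pairing by number. Apart from leaving out 1 array, Sgcb 1419668_at passed in 5 of 10 alternatives and 1436678_at in 7 of 10. Centring removed the levels, so signal over background could not limit any statement.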
